A study of Homo sapiens with 12 samples.

Results

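The 10 genes described here, METRNL, METRN, ARSI, BMP8B, FLYWCH1, EN1, CYHR1, PGP, TRPV2 and PPP1R3E, were chosen by a measured value, a high ratio of footprint density with harringtonine over that with cycloheximide alone in wild-type cells. They are 10 of the 19219 gene rows of the deposited table, and each was found in it by its symbol. The ratio was computed for 6045 genes, those with all 4 group means above 0 and a level above the median, and all 10 genes are among them. Because the ratio chose the genes, it is given below as a description and supports nothing.

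The cells were HEK293, an established human embryonic kidney line, as wild type or with a knockout of CNBP made by CRISPR-Cas9. CNBP is a zinc-finger protein that binds G-rich nucleic acid, and the series addresses its part in translation. Of the 12 samples, 5 wild-type and 3 knockout samples received cycloheximide only, and 3 wild-type samples and 1 knockout sample received harringtonine and cycloheximide. The table holds 1 mean per group, so the spread between samples is unknown, no test between groups was possible, and 1 library of a group may carry its mean. The column headers give a single knockout name, and effects of a clone and of the knockout cannot be told apart.

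Ribosome profiling sequences the pieces of mRNA that a ribosome shields from nuclease. Cycloheximide freezes ribosomes along the whole coding sequence. Harringtonine blocks ribosomes that have just initiated, so that with time footprints gather at start sites while the coding sequence empties. A gene-level density does not show where on the transcript the footprints lie, so a high harringtonine ratio is a whole-gene value and not a mapped start-site peak.

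Apart from the meteorins, the 10 genes belong to different families. METRN and METRNL are the 2 meteorins, secreted proteins studied mainly in mouse nervous system, muscle and fat. BMP8B is a secreted ligand of the bone morphogenetic protein family. ARSI belongs to the sulfatases, which remove sulfate groups, PGP is the phosphatase that clears phosphoglycolate, and PPP1R3E directs protein phosphatase 1 to glycogen. FLYWCH1 is a nuclear zinc-finger protein, EN1 a homeobox transcription factor of the midbrain and hindbrain, CYHR1 (now ZFTRAF1) a cysteine- and histidine-rich protein, and TRPV2 a calcium-permeable cation channel.

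The promoter windows of 4 of them are shown because these genes form the pairs compared below, METRNL with its relative METRN and BMP8B with FLYWCH1. Each window runs from 250 bases before to 50 bases after the transcription start in RefSeq (GRCh38.p14), 5′ to 3′ on the strand of the gene, and the capitals mark runs of 3 or more G. The windows lie at chr17:83080896-83081195 on the plus strand, chr16:714868-715167 on the plus strand, chr1:39788816-39789115 on the minus strand and chr16:2911681-2911980 on the plus strand, in the order printed.
METRNL: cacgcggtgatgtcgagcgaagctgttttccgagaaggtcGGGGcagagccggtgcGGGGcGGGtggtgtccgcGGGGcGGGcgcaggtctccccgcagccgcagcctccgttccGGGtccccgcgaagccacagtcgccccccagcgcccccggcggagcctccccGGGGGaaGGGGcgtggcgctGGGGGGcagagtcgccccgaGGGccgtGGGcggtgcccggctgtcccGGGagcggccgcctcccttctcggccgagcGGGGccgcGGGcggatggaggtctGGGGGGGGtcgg
METRN: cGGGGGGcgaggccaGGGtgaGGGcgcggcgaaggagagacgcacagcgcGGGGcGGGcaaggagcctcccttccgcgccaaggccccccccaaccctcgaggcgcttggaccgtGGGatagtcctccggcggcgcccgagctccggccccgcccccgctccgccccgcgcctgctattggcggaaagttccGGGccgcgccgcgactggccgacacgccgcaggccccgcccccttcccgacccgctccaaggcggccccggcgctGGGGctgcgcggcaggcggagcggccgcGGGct
BMP8B: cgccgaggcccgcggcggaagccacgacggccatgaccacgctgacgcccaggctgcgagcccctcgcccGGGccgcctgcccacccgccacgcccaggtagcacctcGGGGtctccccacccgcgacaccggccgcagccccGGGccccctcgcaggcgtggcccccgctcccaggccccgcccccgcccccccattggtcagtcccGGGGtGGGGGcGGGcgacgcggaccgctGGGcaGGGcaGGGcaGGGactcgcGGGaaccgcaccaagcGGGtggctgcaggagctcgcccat
FLYWCH1: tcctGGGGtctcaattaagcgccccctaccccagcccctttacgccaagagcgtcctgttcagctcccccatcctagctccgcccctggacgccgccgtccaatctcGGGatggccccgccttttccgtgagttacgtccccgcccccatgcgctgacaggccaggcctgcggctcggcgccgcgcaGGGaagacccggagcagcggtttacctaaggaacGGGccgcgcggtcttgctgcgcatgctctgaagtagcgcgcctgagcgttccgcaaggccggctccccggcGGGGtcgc

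RefSeq windows matched 6 of the 10 genes, and 4981 of the 6045 genes compared. The median GC content was 77.7% in those 6 and 64.7% in the 4975 others. METRN and BMP8B both had 79.7%, METRNL 78.7% and PGP 76.7%, each above that of more than 90% of the genes matched. FLYWCH1 (69.0%) and ARSI (66.0%) lay nearer the middle of all genes. METRNL had 15 runs of at least 3 G, BMP8B and PGP 12 each, METRN 9, ARSI 7 and FLYWCH1 5, against a median of 7 in the others. Such a run is no rarity in this window, since 99.1% of genes have at least 1. The windows of BMP8B and FLYWCH1 share no run of bases longer than 10, on either strand. The longest run shared by any of the 15 pairs was 14 bases, between METRN and BMP8B, and METRNL and METRN share 12. These letters describe only the window printed, not the transcripts that were sequenced.

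Densities are the authors' deposited group means per gene, on a scale that is not stated. They span a wide range among the 10 genes. PGP, BMP8B, FLYWCH1 and ARSI ranked 8, 9, 11 and 12 of the 6045 genes by their level, the geometric mean of the 4 groups. METRNL ranked 31 and METRN 227, PPP1R3E 692, EN1 721, CYHR1 2011 and TRPV2 5290. Depth is expressed as effective reads, an estimate from the low values of the table. The whole table came to 2157981 effective reads for wild type and 856106 for the knockout with cycloheximide, and to 1139541 and 401639 with harringtonine. The 10 genes together took 3.32% of the effective reads of wild type with cycloheximide and 16.9% with harringtonine. In the knockout they took 5.48% with cycloheximide and 5.49% with harringtonine. PGP, BMP8B, FLYWCH1 and ARSI alone made up 16.1% of wild type with harringtonine.

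For CNBP itself, the gene targeted, the cycloheximide means were 3.73 (wild type) and 2.20 (knockout), and the harringtonine means 3.27 and 2.36, so footprints on it were present in the libraries labelled as knockout. Relative to the median gene, the log2 ratio of knockout over wild type for CNBP was -0.32 with cycloheximide and -0.19 with harringtonine. Of the HEK293 markers reported, VIM (2.35), KRT8 (0.755) and KRT18 (0.440) were well covered in wild type with cycloheximide, EYA1 and PAX2 stayed below 0.1, and NEFM is listed at 0. Among markers of other cells, the blood gene PTPRC and the liver genes ALB and APOA1 are listed at 0 in all 4 groups, HBB of red cells went from 0 to 0.134, and COL1A1 of fibroblasts from 0.0323 to 0.0610.

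The secreted proteins come first. METRNL (ENSG00000176845, hg19 chromosome 17, 81037567 to 81052864, plus strand) had a density of 4.81 in wild type with cycloheximide and 66.5 with harringtonine, and of 35.3 and 7.88 in the knockout. The order of the treatments was thus opposite in the knockout, where harringtonine gave the lower value. METRN (ENSG00000103260, chromosome 16, 765115 to 769655, plus strand) had 1.05 and 10.9 in wild type, and 2.75 and 2.06 in the knockout. BMP8B (ENSG00000116985, chromosome 1, 40222854 to 40254533, minus strand) had 39.5 and 392 in wild type, and 60.7 and 70.6 in the knockout. All 3 thus had their highest mean in wild type with harringtonine and their lowest in wild type with cycloheximide.

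The enzymes and the phosphatase subunit also had the higher wild-type mean with harringtonine. ARSI (ENSG00000183876, chromosome 5, 149675906 to 149718870, minus strand) had 35.6 with cycloheximide and 193 with harringtonine in wild type, against 80.9 and 15.6 in the knockout. PGP (ENSG00000184207, chromosome 16, 2261998 to 2264808, minus strand) had 70.9 and 257 in wild type, and 53.8 and 150.2 in the knockout, and was the gene in which both genotypes had the higher mean with harringtonine by more than 2-fold. PPP1R3E (ENSG00000235194, chromosome 14, 23764852 to 23772057, minus strand) had 0.378 and 6.41 in wild type, and 0.559 and 0.699 in the knockout.

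The remaining genes encode nuclear proteins, CYHR1 and a channel. FLYWCH1 (ENSG00000059122, chromosome 16, 2961938 to 3001209, plus strand) had 36.4 and 357 in wild type, and 50.4 and 65.4 in the knockout. EN1 (ENSG00000163064, chromosome 2, 119599747 to 119605254, minus strand) had 0.370 and 8.68 in wild type, and 0.407 and 0.604 in the knockout. CYHR1 (ENSG00000187954, chromosome 8, 145674965 to 145691060, minus strand) had 0.0990 and 3.73 in wild type, and 0.193 and 0.254 in the knockout. TRPV2 (ENSG00000187688, chromosome 17, 16318856 to 16340317, plus strand) had 0.0173 and 0.175 in wild type, and 1.57 and 0.0710 in the knockout, which makes it the 1 gene of the 10 whose highest mean was that of the knockout with cycloheximide. Its wild-type means rest on 5 and 18 effective reads.

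**Figure D1:**
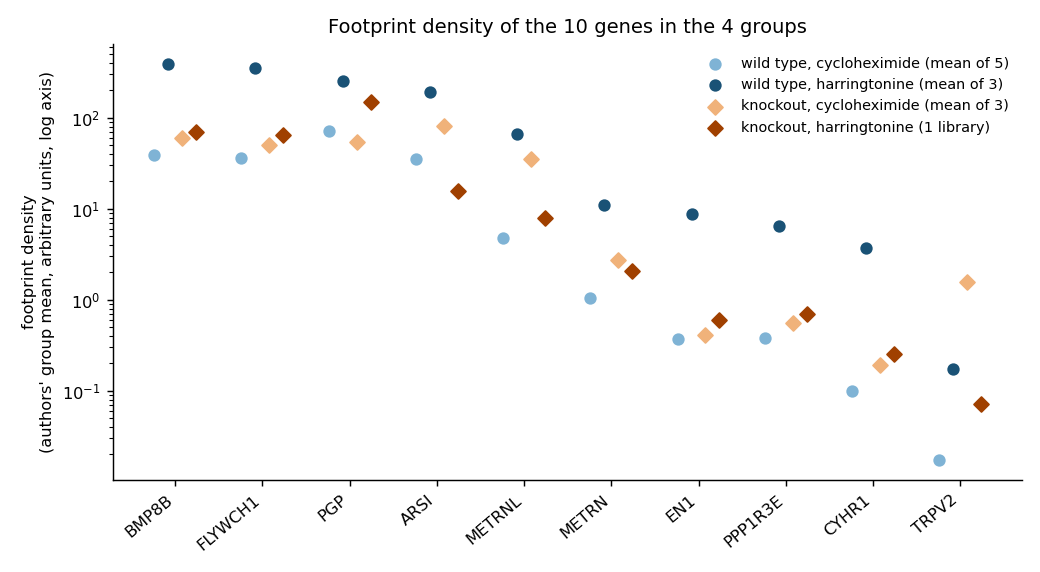
Footprint density of each of the 10 genes (vertical log axis, arbitrary units) in the 4 groups. Points are the authors' group means, with no spread available. Wild type with harringtonine is the highest point for all genes except TRPV2, where the knockout with cycloheximide (1.57) is highest.

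The ratio that chose the genes is given next, in log2 after subtracting the median gene's value. That median was 0.11 for harringtonine over cycloheximide in wild type, 0.27 for the same ratio in the knockout, -0.44 for knockout over wild type with cycloheximide and -0.28 with harringtonine. All 10 genes were at least 2-fold higher with harringtonine in wild type, as were 3.41% of all genes compared, and 0 were at least 2-fold lower (3.31% of all), and since this contrast chose the genes nothing is read from the count. The ratio was 5.12 for CYHR1, which ranked 1, 4.44 for EN1, 3.97 for PPP1R3E, 3.68 for METRNL and 3.27 for METRN. TRPV2 had 3.23 (95% counting interval 1.74 to 5.01), BMP8B 3.20, FLYWCH1 3.18, ARSI 2.33 and PGP 1.75. The picks are not simply the top of the list. PGP ranked 60 and ARSI 30, and 50 other genes lay above PGP, the nearest being SMCO4 at 1.75, with TFAP2B next below PGP at 1.71. The highest of the genes not picked were the cell-cycle kinase CDK6 (4.80), the homeobox gene HOXB8 (3.32), TULP1 (3.19), FBRSL1 (3.18) and TMEM107 (3.18).

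In the knockout, whose values are not in the ratio that chose the genes, the drug ratio of the same genes was spread on both sides of the median gene. Of the 10, only PGP was at least 2-fold higher with harringtonine (5.51% of all genes compared), and METRNL, ARSI and TRPV2 were at least 2-fold lower (6.82% of all). The median of the 10 genes was -0.0042, against 0 for all genes by construction. PGP had a ratio of 1.21 (counting interval 1.16 to 1.25). EN1 (0.30), CYHR1 (0.12), FLYWCH1 (0.10), PPP1R3E (0.048) and BMP8B (-0.056) lay near the median gene, and METRN had -0.69 (-0.99 to -0.41). METRNL had -2.44 (-2.62 to -2.26), ARSI -2.65 (-2.75 to -2.56) and TRPV2 -4.74 (-6.70 to -3.33). TRPV2 reached the level needed to be compared (0.114) through its knockout mean with cycloheximide, the denominator here. Its place among all genes is therefore not given, and nothing is read from counting it as lower. With a pseudocount of 1 its ratio was -1.32. The intervals for EN1, CYHR1 and PPP1R3E include 0, with 28, 30 and 63 effective reads in the single knockout library with harringtonine. The intervals cover counting error only.

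Genes that were not picked but had a high wild-type ratio give a scale for this. Of 35 such genes at or above 4-fold in wild type, with a median of 2.44, 7 were at least 2-fold higher with harringtonine in the knockout and 7 at least 2-fold lower, and their median in the knockout was 0.34. Of the 9 among them that reached 100 effective reads in every group, 4 were at least 2-fold higher and 0 lower. Whether the 10 genes differ from those 35 was not tested.

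**Figure D2:**
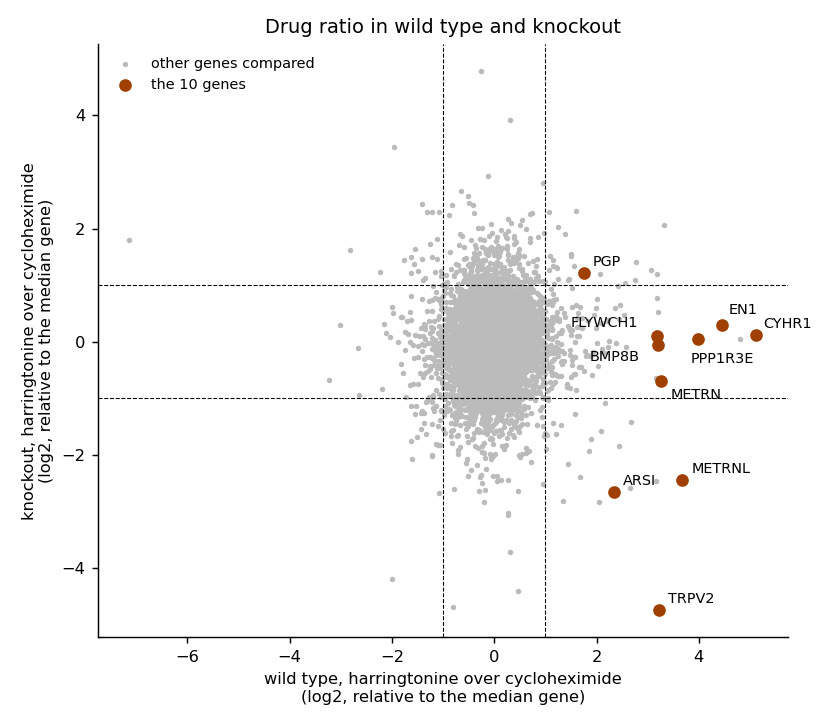
Harringtonine over cycloheximide in wild type (horizontal axis) and in the knockout (vertical axis), in log2 relative to the median gene, for the 6045 genes compared (grey) and the 10 genes (brown). Dashed lines mark 2-fold. The 10 genes lie at 1.75 or more on the horizontal axis, while on the vertical axis they run from -4.74 (TRPV2) to 1.21 (PGP).

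The difference between the 2 drug ratios, knockout minus wild type, was negative for all 10 genes. It was below -1 for 9 of them, as for 10.9% of all genes compared, and above 1 for 0 (9.25% of all). The wild-type term of this difference is the contrast that chose the genes. TRPV2 had -7.97, which was -1.49 with a pseudocount of 1. Its value includes the knockout mean with cycloheximide through which TRPV2 reached the level needed to be compared. METRNL had -6.12. CYHR1 (-5.01), ARSI (-4.99), EN1 (-4.15), METRN (-3.96), PPP1R3E (-3.93), BMP8B (-3.26) and FLYWCH1 (-3.09) followed. PGP stood apart at -0.54 (counting interval -0.60 to -0.49).

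Knockout over wild type shares a wild-type mean with the choice of the genes in both treatments, so its direction is partly set by that choice and is given as values. With cycloheximide 7 of the 10 genes were at least 2-fold higher in the knockout (4.43% of all genes compared) and 0 at least 2-fold lower (3.24% of all), with a median of 1.24. TRPV2 had 6.94 (counting interval 5.70 to 8.58), from 5 effective reads in wild type and 199 in the knockout. TRPV2 reached the level needed to be compared through that knockout mean, the numerator here. Nothing is therefore read from its value or from its place among the 7. METRNL had 3.32 (3.21 to 3.43), METRN 1.84 (1.63 to 2.05), ARSI 1.63, CYHR1 1.41, BMP8B 1.06 and PPP1R3E 1.01. FLYWCH1 had 0.91, EN1 0.58 and PGP 0.045. On the deposited scale, without centring, PGP was lower in the knockout at -0.40, and BMP8B (0.62), CYHR1 (0.96) and PPP1R3E (0.56) fell short of 2-fold.

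With harringtonine the same genes lay on the other side. All 10 were below the median gene in the knockout and 9 at least 2-fold lower (6.58% of all genes compared), with 0 at least 2-fold higher (6.72% of all) and a median of -2.49. CYHR1 had -3.59, EN1 -3.56, ARSI -3.35, PPP1R3E -2.91 and METRNL -2.79. BMP8B had -2.19, FLYWCH1 -2.16, METRN -2.12 and TRPV2 -1.02, whose counting interval (-3.11 to 0.62) includes 0. PGP had -0.49. The wild-type harringtonine mean, high by choice, is the denominator here, and the numerator is 1 library. Of the 35 genes not picked at or above 4-fold in wild type, 27 were also at least 2-fold lower here, with a median of -1.33. Of the 8 at or above 8-fold, 8 were at least 2-fold lower, with a median of -2.25. The drop is thus not particular to the 10 genes.

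**Figure D3:**
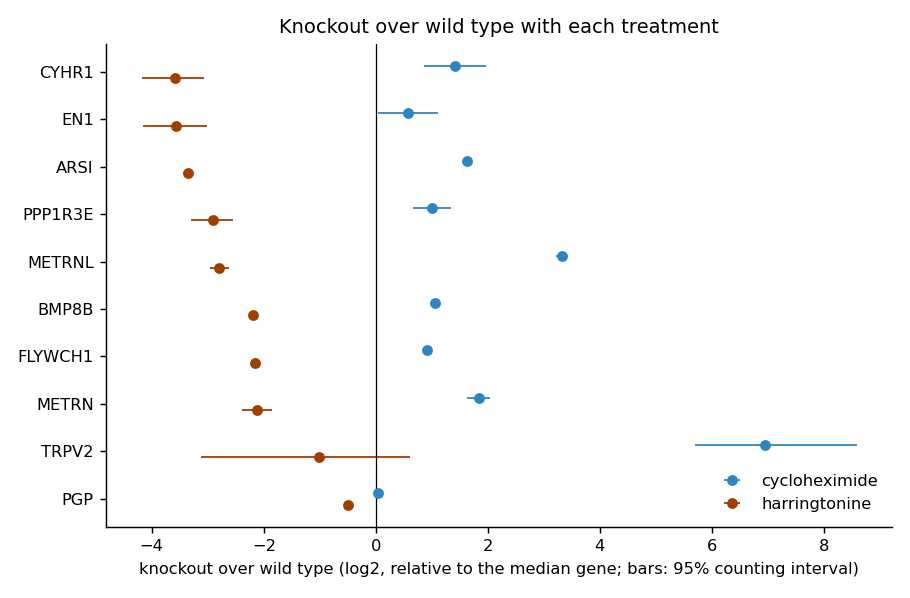
Knockout over wild type for the 10 genes with cycloheximide (blue) and harringtonine (brown), in log2 relative to the median gene. Bars are 95% counting intervals, which leave out the spread between libraries. With cycloheximide the values run from 0.045 (PGP) to 6.94 (TRPV2), and with harringtonine from -3.59 (CYHR1) to -0.49 (PGP).

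The table gives the ratios a second time as values named TE, a name its header does not expand. For every gene the difference between LFC (the deposited log2 ratio of wild type over knockout) and TE is the same with both treatments, to within 1.33e-15, so it is 1 further value per gene that does not depend on the drug. Where TE stands for a footprint ratio divided by an mRNA ratio, this value would be the log2 mRNA ratio of wild type over knockout. In the authors' deposited table that difference was 1.41 for ARSI and 0.51 for EN1, both above the 95th percentile of the genes compared (0.33). It was -0.30 for BMP8B, at the 5th percentile, 0.30 for PPP1R3E, 0.23 for TRPV2, 0.098 for METRNL and 0.077 for CYHR1. It was -0.018 for FLYWCH1, -0.13 for PGP and -0.17 for METRN. The footprint ratios of METRNL, FLYWCH1 and CYHR1 therefore stood almost unaltered in the TE columns, at -2.97, -0.45 and -1.04 with cycloheximide, where their LFC was -2.88, -0.47 and -0.96.

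Genes that might share reads with the 10 were looked at in 3 ways, from overlap on the genome, from lists of family members and from likeness of profile. No transcript sequences were compared. By hg19 position, 23 other genes overlap or lie next to the 10, and 4 of these overlap. PPIE and OXCT2 overlap BMP8B by 6733 and 1826 bases, on the opposite and the same strand. PPIE had a density of 0.137 in wild type with cycloheximide and 0.128 with harringtonine, and OXCT2 is listed at 0 in both. HOMEZ overlaps PPP1R3E by 3805 bases on the same strand and had 0.0701 and 0.129 in wild type, and 0.125 and 0.0430 in the knockout. BCL2L2 overlaps PPP1R3E by 4059 bases on the opposite strand and had 0.0052 in wild type with cycloheximide, where PPP1R3E had 0.378. UBB, a polyubiquitin gene 32797 bases from TRPV2, had 15.9 and 14.4 in wild type. Without UBB no neighbour went above 0.490 in any group that lists it. The 6 neighbours among the genes compared had wild-type drug ratios of -0.47 to 0.43.

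RefSeq lists further genes that overlap some of the 10 and are named here only. They are the antisense RNAs BMP8B-AS1 and FLYWCH1-AS1, the pseudogenes RPL23AP86 at FLYWCH1 and H3P37 at PPP1R3E, and, at CYHR1, the readthrough gene TMEM276-ZFTRAF1 and MIR10400. The library kit was directional per the labels' protocols, but whether counting used strand was not stated. Reads of a gene and of an antisense partner may therefore be mixed in one value, and this was not tested.

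Reads on most close relatives were few. BMP8A, a near copy of BMP8B, had densities of 0.0139 and 0.0373 in wild type with cycloheximide and harringtonine, and 0 and 0.0671 in the knockout, where BMP8B had 39.5, 392, 60.7 and 70.6. BMP8A rests on 2.41 and 2.30 effective reads in wild type, and its drug ratio there, 1.31 (counting interval -2.11 to 4.68), has no settled direction. No source used here names the counting tool, so it is unknown how reads matching both BMP8A and BMP8B were placed. Whether the low values of BMP8A bear on shared reads was not tested. FLYWCH2, the neighbour and relative of FLYWCH1, had 0.107 and 0.0833 in wild type, and 0.172 and 0.232 in the knockout. EN2, the paralog of EN1, had 0.353 and 1.39 in wild type, and 0.322 and 0.327 in the knockout. The EN2 drug ratio was 1.87 in wild type (counting interval 1.53 to 2.22) and -0.25 in the knockout, on 49.3 and 21 effective reads there. Its ratio of knockout over wild type with harringtonine was -1.81. EN1 had 4.44, 0.30 and -3.56 in that order. The drug ratios of EN1 and EN2 in the knockout differ in sign only after centring, and the counting interval for EN1 there (-0.44 to 1.01) includes 0. BMP7 and GDF7, the relatives of BMP8B among the genes compared, had wild-type drug ratios of -0.015 and -0.46. Below the level needed to be compared, GDF11, another ligand related to the bone morphogenetic proteins, had 0.0821 and 0.257 in wild type, and 0.0462 and 0.0137 in the knockout. Its drug ratio was 1.54 in wild type (0.80 to 2.28) and -2.03 in the knockout, where it rests on 7.77 and 0.970 effective reads. BMP6 had a wild-type drug ratio of 1.78 (0.50 to 3.11) on 10.3 and 13.5 effective reads, and 0.63 in the knockout.

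Over all family lists, 55 genes other than the 10 are in the table and 16 are among the genes compared. The lists include activators of sulfatases and the catalytic subunits of protein phosphatase 1, which were listed as partners. For the drug in wild type the median of these 16 was -0.44, with 1 at least 2-fold higher (EN2, 3.41% of all genes compared) and 2 lower (3.31% of all). The 2 were the pyridoxal phosphatase PDXP at -2.04 (interval -4.08 to -0.53), on 3.71 effective reads with harringtonine, and the sulfatase ARSK at -1.27 (-2.04 to -0.57). For the drug in the knockout the median was -0.17, with 0 beyond 2-fold (5.51% of all genes compared were higher and 6.82% lower). For knockout over wild type the medians were 0.17 with cycloheximide and 0.41 with harringtonine. With cycloheximide FLYWCH2 (1.13, interval -0.38 to 2.56) was at least 2-fold higher (4.43% of all genes compared). With harringtonine ARSA, FLYWCH2 (1.76) and PDXP (1.88) were at least 2-fold higher (6.72% of all) and EN2 lower (6.58% of all). Those higher calls with harringtonine rest on 3.14 to 5.79 effective reads in wild type and 4.55 to 6.99 in the knockout, so nothing is read from them. The catalytic subunits of protein phosphatase 1 lay close to the median gene in wild type, PPP1CA at -0.26, PPP1CC at -0.25 and PPP1CB at 0.00. Among vanilloid channels, TRPV1 and TRPV5 are listed at 0 in all groups, and none but TRPV2 was high enough to be compared.

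A different kind of likeness was found between genes that neither overlap nor belong to 1 family. Each gene's 4 group means were taken in log2 and centred on their own mean, and profiles were compared by Euclidean distance. Among the 45 pairs of the 10 genes the nearest was BMP8B with FLYWCH1, at a distance of 0.13, where the next pair, METRN and BMP8B, had 0.62. This pair was singled out after the values were seen, as the nearest of all. The wild-type means in each profile also chose the genes, so the closeness is a description only. BMP8B and FLYWCH1 also had nearly equal effective reads. BMP8B had 19509 and FLYWCH1 19190 in wild type with cycloheximide, and 68916 and 66884 with harringtonine. The knockout values were 13195 and 11692, then 6447 and 6367. The ratio of BMP8B to FLYWCH1 was 1.02 (counting interval 0.996 to 1.04), 1.03 (1.02 to 1.04), 1.13 (1.10 to 1.16) and 1.01 (0.978 to 1.05) in that order. So the pair differed by 1.13-fold or less in effective reads, which are estimates from the listed lengths, and by 1.20-fold or less in density. Across groups the density of each varied 9.94-fold (BMP8B) and 9.81-fold (FLYWCH1). The next gene in effective reads was PGP, which differed from BMP8B by up to 1.43 in log2. The genes lie on chromosomes 1 and 16. Whether they share reads was not tested, since gene-level means hold no read positions.

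Similar pairs joined others of the 10 to genes that had not been picked. These pairs were chosen after the values were seen. Each partner was the nearest profile among all genes compared, so a nearly constant ratio was fixed by how it was found. Whether these pairs share reads was not tested. PGP over LSM4, an RNA-processing factor on chromosome 19, was 8.65 and 8.44 in wild type and 9.03 and 9.34 in the knockout, although PGP itself varied 4.78-fold across the groups. METRN over IRX2, a homeobox gene on chromosome 5, was 0.815 and 0.878 in wild type and 1.01 and 0.971 in the knockout, while METRN varied 10.4-fold. CYHR1 over CDK6, on chromosome 7, was 0.0479 and 0.0600 in wild type and 0.0560 and 0.0585 in the knockout, while CYHR1 varied 37.7-fold. CDK6 was also the nearest profile of EN1 and of PPP1R3E, at distances of 0.43 and 0.63. ARSI over FAM47E-STBD1 was 466 and 374 in wild type and 446 and 422 in the knockout, though the second gene rests on 2 effective reads in the knockout with harringtonine. METRNL was nearest to GATAD2A at 0.58, with ratios from 14.8 to 24.2. TRPV2 had no close counterpart, its nearest being SSH1 at 2.28.

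**Figure D4:**
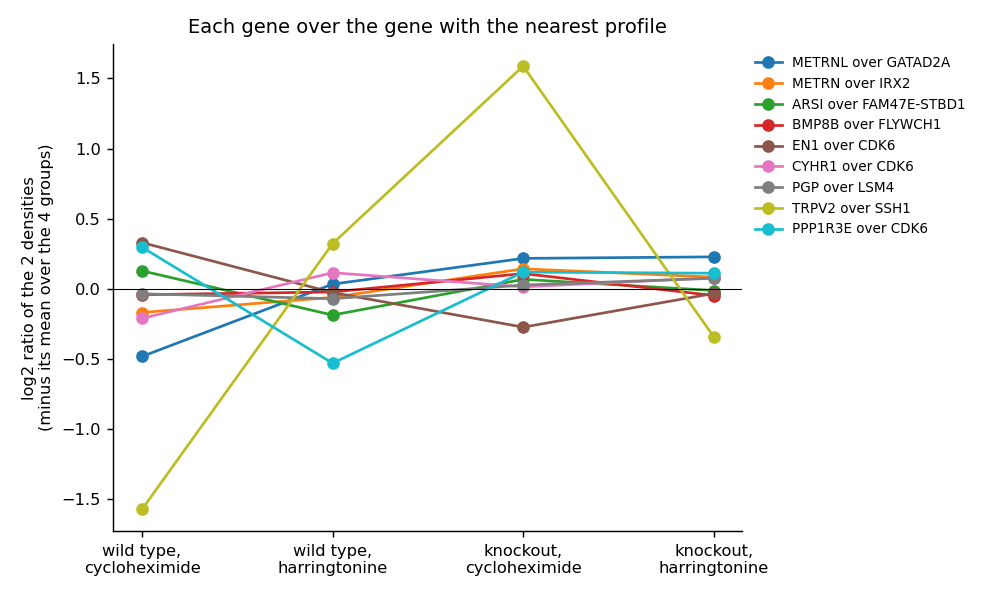
Density ratio of each gene to the gene with the nearest profile, in log2 minus its mean over the 4 groups (vertical axis), for each group (horizontal axis). The FLYWCH1 over BMP8B line is the mirror of BMP8B over FLYWCH1 and is left out. Lines for BMP8B, PGP, METRN, CYHR1 and ARSI stay near 0, and that of TRPV2 over SSH1 varies 8.92-fold. Each partner was picked for its near profile, so lines near 0 follow from that choice.

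The distance of each of the 10 genes to their own median profile describes how they vary. It was 0.26 for BMP8B, 0.32 for FLYWCH1, 0.60 for METRN, 0.70 for PPP1R3E, 1.32 for EN1, 1.44 for CYHR1, 1.51 for PGP, 1.84 for METRNL, 1.93 for ARSI and 4.78 for TRPV2. The nearest genes not picked to that profile were IRX2 (0.45), NKX6-2 (0.63), FBLL1 (0.74), TMEM107 (0.79) and TRIP10 (0.85), a likeness measured over 4 group means. IRX2 had 1.29 and 12.4 in wild type and 2.72 and 2.12 in the knockout. NKX6-2, another homeobox gene, had 0.557 and 3.61 in wild type and 0.878 and 0.996 in the knockout, on 20 effective reads in the last group. FBLL1, a relative of the nucleolar methyltransferase fibrillarin, had 9.82 and 55.2 in wild type and 13.6 and 16.3 in the knockout. Their likeness to a profile that is high in wild type with harringtonine was fixed by how they were found.

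The listed transcript lengths do not set the 10 genes apart. Their median was 3243 bases, against 3094 bases over the genes compared, and they run from 1900 bases (METRNL) to 6158 bases (CYHR1). Of the 10, 3 lie on chromosome 16 (METRN, PGP and FLYWCH1), and none of these 3 is next to another in the table.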

How the data were processed

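Footprints were measured in 12 HEK293 samples. TopHat and hg19 come from the submitters' processing notes, and no source used here names the counting tool. The authors deposited 1 signal (mean density) per gene and group. Per the file headers, the knockout means are the same kind of value, entered as other because of error cells, as are Max_tx_len (longest transcript) and, as a score, the LFC and TE columns, in log2. LFC equals log2 of wild type over knockout.

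Rows without a knockout value (918), on patch sequences (290) or whose LFC differed from the means by over 1e-06 (175) were set aside. Of 12091 genes with all 4 means above 0, the 6045 above the median level of 0.114 were compared. Ratios are log2 without a pseudocount, minus their median; at least 2-fold is called higher or lower.

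Low products of density and listed length repeat at steps worth 1 read (tolerance 0.005; 5, 3, 3 and 1 steps in wild type with cycloheximide, wild type with harringtonine, knockout with cycloheximide and knockout with harringtonine, as many as there are libraries). Product over mean step gives effective reads. In the single knockout library with harringtonine 7.46% of products are whole to within 0.01, and 71.9% for the 231 genes whose genomic span is the listed length, so effective reads are estimates. Intervals are 95% Clopper-Pearson intervals on them (scipy 1.17.1), tested on simulated reads. The simulation drew whole reads with the steps found, so it could not test error in the estimates of effective reads. Only counting error is in the intervals, since group means hold no spread between libraries. The reads lack molecular identifiers, so copies of a molecule count as separate reads and the intervals may be too narrow. The interval of a difference of ratios is a normal approximation.

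The members and lists were chosen with earlier results of these data known. Named genes are the 10 genes, overlapping or next genes, listed relatives, the 5 highest others and the one below the lowest, and the 5 nearest profiles; others were chosen after values were seen. 1 listed marker is not reported here. The alternatives were centring, scaling, a pseudocount of 1, the genes compared and the fold.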

Additional observations from a re-analysis of the deposited data

How the results depend on the processing

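Only group means were used, so leaving out a replicate was not run. No paired analysis was possible because the columns are means of groups and carry no replicate numbers. The wild-type drug ratio of the 10 genes had a median of 3.25, which became 2.46 with a pseudocount of 1 and 3.08 relative to genes reaching 100 effective reads in every group. For knockout over wild type with cycloheximide the median of 1.24 became 0.79 without centring, 0.62 with a pseudocount of 1, and 1.47 relative to genes with a level of at least 1 or reaching 100 effective reads in every group. The number of genes at least 2-fold higher went from 7 to 4 without centring and to 3 with the pseudocount, and 2 were at least 4-fold higher. The share of all genes under each alternative setting was not computed. Nothing is therefore read from this or the other counts in this paragraph. With harringtonine the median of -2.49 was -2.78 without centring and -2.22 with the pseudocount. The knockout drug ratio had a median of 0.27 without centring, and 0 genes were at least 4-fold higher. The largest move was in the difference of drug ratios, whose median went from -4.06 to -2.75 with the pseudocount. No called value changed sign under any of these settings. TRPV2, on 5 and 18 effective reads in wild type, was no longer 2-fold lower with harringtonine under 4 settings (upper-quartile scaling, the pseudocount and both sets of more abundant genes). With the pseudocount its other ratios went from 3.23 to 0.18 (drug, wild type, leaving 9 of 10 genes at least 2-fold higher), from 6.94 to 1.42 (cycloheximide), from -4.74 to -1.32 (drug, knockout) and from -7.97 to -1.49 (difference).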

Other observations

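The wild-type drug ratio was set against the GC content of the promoter window for the 4981 genes compared that have one. Genes were put in 5 bins. In the bin with the lowest GC content (998 genes, median 52.3%) the median log2 ratio of harringtonine over cycloheximide was -0.040, and 2.71% were at least 2-fold higher. In the bin with the highest GC content (970 genes, median 75.7%) the median was 0.064 and 6.19% were at least 2-fold higher. The 3 bins between had 2.12%, 2.81% and 2.56%. In the knockout the lowest bin had a median of 0.0046 with 5.41% at least 2-fold higher, and the highest bin -0.063 with 4.23%. The bins hold 6 of the 10 genes, those with a window. Of the genes not picked, the 26 with a window and a wild-type ratio of at least 4-fold had a median GC content of 70.7%, and the 4819 below 2-fold had 64.3%. These are descriptions across genes, which are not independent replicates.

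CDK6, which ranked 2 by the wild-type ratio, had 2461 effective reads with cycloheximide and 26287 with harringtonine in wild type, and 1808 and 955 in the knockout. FBRSL1 differed from most of the 10 genes in the knockout, where its drug ratio was 1.20 (counting interval 1.02 to 1.38), close to that of PGP.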
